A study of Mus musculus with 10 samples.

Results

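Untreated cultures labelled as CD8+ T cells fell into 2 sets of libraries that differ in lineage, receptor, stress and metabolic genes. Untreated libraries 1 and 2 (2 of the 10 libraries of the series) were set against untreated libraries 3 to 5 (3 libraries). The sets were chosen on measured values of these same libraries: Cd4 stood above 400 CPM (counts scaled to library size) in libraries 1 and 2 and below 5 CPM in libraries 3 to 5. Every difference between the sets is therefore given as a description, with no test. All 5 libraries carry the same labels, which are wild-type (WT) mouse, CD8+ T cell and no agent, and the study's design text adds that the cells came from spleen and grew for 5 days in normal medium. The study set such cells against cells grown with 10 mM NAC (N-acetylcysteine), and those 5 libraries were not used here. The labels name no mouse strain, age or sex, no stimulus in the culture and no batch, nor do they tell whether the libraries came from separate animals or cultures.

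T cells that leave the thymus usually carry either CD4, the co-receptor of helper cells, which binds MHC class II on the cells they meet, or CD8, the co-receptor of cytotoxic cells, which binds MHC class I. The transcription factor ThPOK, encoded by Zbtb7b, directs the helper lineage, and RUNX3 directs the cytotoxic lineage and silences Cd4. Cultured T cells also carry an amino acid response, in which the transcription factor ATF4 switches on amino acid transport, amino acid synthesis and tRNA charging when amino acids run short or other stress signals arrive.

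Libraries held 17.71 and 16.39 M counted reads in libraries 1 and 2, against 13.30, 16.92 and 16.75 M in libraries 3 to 5. The comparison covered 11697 of the 21898 genes, after those with few reads were set aside. On log2 CPM of these genes, principal component 1 held 90.0% of the variance between the 5 libraries and parted the 2 sets. Inside a set the libraries lay close together but were not the same library counted again. A chi-square per gene, which averages 1 under sampling noise alone, averaged 4.47 between libraries 1 and 2, and 2.43 to 3.03 between pairs of libraries 3 to 5. Between the sets it averaged 68.3 to 83.2. The common biological coefficient of variation was 5.27% between libraries 1 and 2 and 3.43% among libraries 3 to 5. Of the 8709 genes with a mean of at least 10 CPM in one set, 5 differed by at least 2 times between libraries 1 and 2, and 10 among libraries 3 to 5. Of these, Atp5k had 36 and 17 CPM in libraries 1 and 2, and the others were at or below 3.27 CPM in the set in which they varied.

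A gene was counted as higher in libraries 1 and 2 when both of their values lay above all 3 values of libraries 3 to 5 and the ratio of the means was at least 2, and as lower when both lay below and the ratio was at most 0.5. By this rule 731 genes (6.25% of the 11697) were higher and 844 genes (7.22%) were lower. Without the ratio, 36.4% of the genes had both values of libraries 1 and 2 above those of libraries 3 to 5, and 37.6% had both below, so that a lack of overlap on its own was common. The 2 sets do not overlap for any gene called higher or lower below. Among the 8709 more abundant genes, 247 were higher, 26 of them by at least 10-fold, and 388 were lower, 30 of them by at least 10-fold.

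**Figure D1:**
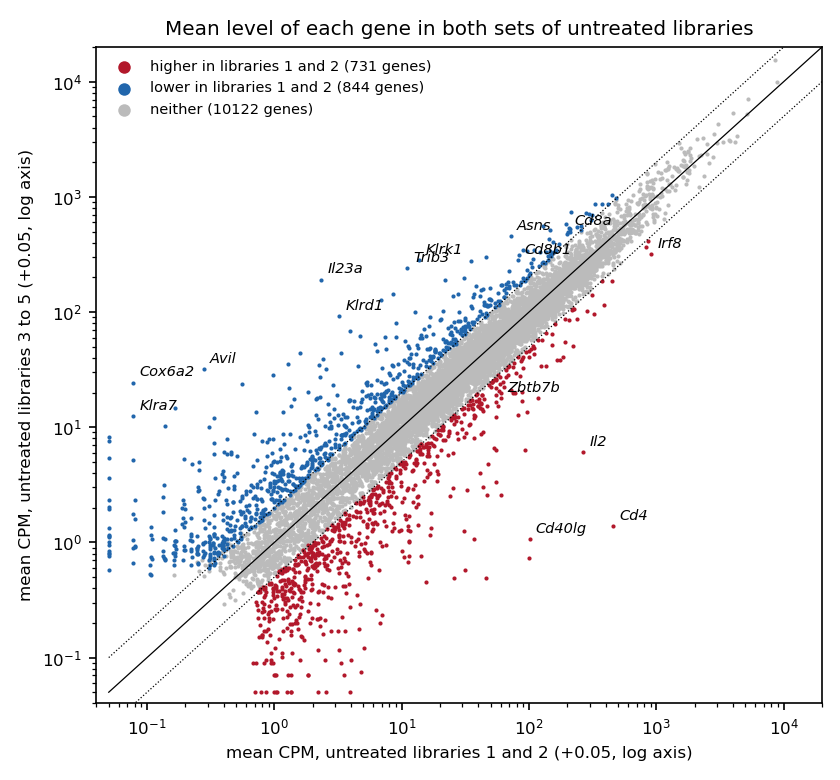
Mean CPM of each of the 11697 genes in untreated libraries 1 and 2 (horizontal axis) and libraries 3 to 5 (vertical axis), both on log axes after adding 0.05 CPM. The solid line marks equal means and the dotted lines a ratio of 2; 731 genes (red) were higher and 844 (blue) lower in libraries 1 and 2, with Cd4 farthest to the lower right.

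The sets differed in both co-receptors. Cd4 measured 459 and 456 CPM in libraries 1 and 2, against 0.76, 1.98 and 1.28 CPM in libraries 3 to 5. This was 342-fold higher, and the closest pair of libraries still differed 230-fold (Cd4 is the gene the sets were chosen on). Cd8a, the alpha chain of the CD8 co-receptor, had 198 and 209 CPM in libraries 1 and 2, against 518, 493 and 484 CPM in libraries 3 to 5, which was 2.45-fold lower. Cd8b1, the beta chain, had 82.3 and 82.7 CPM in libraries 1 and 2, against 279.8, 279.5 and 288 CPM in libraries 3 to 5, 3.42-fold lower. Libraries 1 and 2 thus held reads of both co-receptors, while libraries 3 to 5 held many reads of CD8 genes and almost none of Cd4. Per length, the deposited FPKM values (counts scaled to gene length and library size) put the level of Cd4 above that of Cd8a in libraries 1 and 2. There Cd4 stood at 115.8 and 115.9 FPKM, Cd8a at 55.4 and 58.8 FPKM and Cd8b1 at 56.5 and 57.2 FPKM. In libraries 3 to 5 the level of Cd4 was 0.187, 0.484 and 0.311 FPKM, with Cd8a at 141, 134 and 131 FPKM and Cd8b1 at 187, 186 and 191 FPKM. Against the label CD8+, the Cd4 level in libraries 1 and 2 was thus above the level of each CD8 chain, in CPM and in FPKM. In bulk samples, fewer cells of a type and less RNA per cell cannot be told apart, and this holds for each result here.

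Among the helper-lineage genes other than Cd4, Zbtb7b and Cd40lg were higher and the rest lay below. Zbtb7b measured 54.8 and 64.9 CPM in libraries 1 and 2, against 17.6, 18.7 and 17.4 CPM in libraries 3 to 5, 3.34-fold higher. Cd40lg, the CD40 ligand with which helper cells license B cells and dendritic cells, had 95.9 and 106 CPM in libraries 1 and 2, against 0.988, 1.2 and 0.85 CPM in libraries 3 to 5, 99.7-fold higher. Of the 5 helper-lineage genes listed, Cd4, Zbtb7b and Cd40lg were higher (60%, against 6.25% of all genes), and Cd4 is the gene the sets were chosen on. The other 2 lay below all of libraries 3 to 5, and 1 of them was lower by the rule (20%, against 7.22%). Tnfsf8, the CD30 ligand, was lower, with 139 and 151 CPM in libraries 1 and 2, against 341, 335 and 343 CPM in libraries 3 to 5.

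On the cytotoxic side, 4 of 7 listed genes (57.1%, against 7.22% of all genes) were lower and none was higher. Crtam, an adhesion receptor of activated cytotoxic T cells, had 84.4 and 83 CPM in libraries 1 and 2, against 313, 311 and 318 CPM in libraries 3 to 5, 3.75-fold lower. Cd160, a receptor of cytotoxic and innate-like lymphocytes, had 17.6 and 13.4 CPM in libraries 1 and 2, against 65.6, 57.9 and 60.5 CPM in libraries 3 to 5, 3.96-fold lower. Runx3 itself lay below in libraries 1 and 2 without reaching a ratio of 2, at 66.5 and 51.2 CPM in libraries 1 and 2, against 85.4, 79.3 and 80.6 CPM in libraries 3 to 5. Eomes, a T-box factor of memory and effector CD8 T cells, was likewise at 34.9 and 29.8 CPM in libraries 1 and 2, against 55, 50.4 and 50.3 CPM in libraries 3 to 5. The T cell receptor signalling chains were present in all 5 libraries, and none of the CD3 genes or Cd247 met the rule. Cd3e had 139.9 and 135 CPM in libraries 1 and 2, against 119.7, 109 and 110.4 CPM in libraries 3 to 5. Cd3d lay below, with 219.6 and 205 CPM in libraries 1 and 2, against 302, 317 and 341 CPM in libraries 3 to 5. Cd247, the zeta chain, had 95.6 and 85.5 CPM in libraries 1 and 2, against 91.5, 88.3 and 90.9 CPM in libraries 3 to 5, with overlap. Of 20 genes of the receptor complex and its proximal signalling, 1 was lower (5%, near the 7.22% of all genes) and none was higher.

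**Figure D2:**
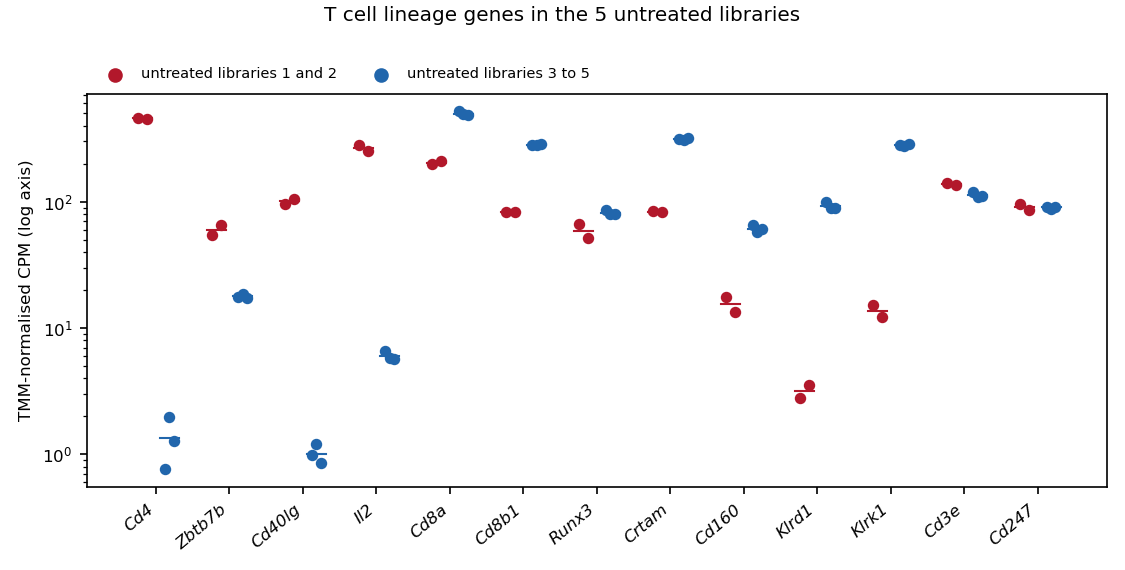
TMM-normalised CPM (log axis) of 13 lineage genes in untreated libraries 1 and 2 (red, left of each pair) and libraries 3 to 5 (blue, right); each point is 1 library and each short line a set mean. Cd4, Zbtb7b, Cd40lg and Il2 stand higher in libraries 1 and 2, the CD8, Crtam, Cd160 and Klr genes stand lower, and Cd247 overlaps.

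The killer lectin-like receptors, which natural killer (NK) cells and cytotoxic T cells use to sense MHC class I and stress ligands, held the largest share of lower genes of any list with at least 10 compared genes. All lie on chromosome 6. Of 13 compared, 12 (92.3%, against 7.22% of all genes) were lower and none was higher. Their median log2 ratio was -4.15, or -3.91 with genes that had no read in libraries 1 and 2 set at their bound, beside -0.01 over all genes. With a filter at a mean of 5 CPM, the count of lower genes was 4, since most members have few reads. Klrk1, which encodes the activating receptor NKG2D, measured 15.3 and 12.1 CPM in libraries 1 and 2, against 281, 276 and 288 CPM in libraries 3 to 5, 20.5-fold lower. Klrd1, encoding CD94, the partner chain of the NKG2 receptors, measured 2.77 and 3.57 CPM in libraries 1 and 2, against 99.4, 89.1 and 89.8 CPM in libraries 3 to 5, 29.2-fold lower. Klrc1, encoding the inhibitory receptor NKG2A, had 4.33 and 3.39 CPM in libraries 1 and 2, against 70.5, 70.0 and 65.2 CPM in libraries 3 to 5, 17.8-fold lower. Among the Ly49 receptors of the Klra family, Klra7 had 0.0555 and 0 CPM in libraries 1 and 2, against 12.8, 12.6 and 12.1 CPM in libraries 3 to 5. With 1 read in libraries 1 and 2 in all, the ratio was 451-fold lower, with a counting interval of 77.7 to 17202 (95%, exact, counting error only). Klra3 had no read in libraries 1 and 2 and 5.4, 5.1 and 5.47 CPM in libraries 3 to 5, at least 61.8-fold lower, against a floor of 3 reads over both libraries. Klra genes are near-identical paralogues whose reads may have been shared out between them, so the single members are uncertain. The exception among the compared genes was Klrb1f, which overlapped, at 0.333 and 0.476 CPM in libraries 1 and 2, against 0.836, 0.24 and 0.607 CPM in libraries 3 to 5. Of the NK cell genes, Ncr1 and Tyrobp stayed near 0 in all 5 libraries: Ncr1 was at 0.0555 and 0 CPM in libraries 1 and 2, against 0.152, 0.06 and 0.0607 CPM in libraries 3 to 5, and Tyrobp at 0.222 and 0 CPM in libraries 1 and 2, against 0.152, 0.12 and 0.0607 CPM in libraries 3 to 5. All 3 compared genes of the NK cell list lay below all of libraries 3 to 5 (against 37.6% of all genes), and 1 was lower by the rule (33.3%, against 7.22%). That was Fcer1g, with 0.388 and 0.238 CPM in libraries 1 and 2, against 2.74, 2.40 and 2.55 CPM in libraries 3 to 5, 8.18-fold lower.

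Cytotoxic effector genes were lower in part. Of 15 compared, 6 were lower (40%, against 7.22% of all genes) and 1 was higher (6.67%, against 6.25%). Gzmb, the granzyme gene with the most reads, had 1662 and 1328 CPM in libraries 1 and 2, against 2889, 2931 and 2949 CPM in libraries 3 to 5, just short of a ratio of 2. The pore-forming Prf1 had 26.1 and 23.8 CPM in libraries 1 and 2, against 45.2, 45.3 and 46.2 CPM in libraries 3 to 5. Nkg7, a membrane protein of cytotoxic granules, was 3.57-fold lower, with 148 and 142 CPM in libraries 1 and 2, against 517, 519.6 and 516 CPM in libraries 3 to 5. The granule protease gene Ctsw was 3.52-fold lower, with 27.5 and 29 CPM in libraries 1 and 2, against 96.2, 105 and 96.2 CPM in libraries 3 to 5. Serpinb6b, of a family of protease inhibitors, was 2.62-fold lower, with 173 and 136 CPM in libraries 1 and 2, against 403, 407 and 404 CPM in libraries 3 to 5. Gzmc ran the other way at a low level, with 11.6 and 9.52 CPM in libraries 1 and 2, against 3.88, 4.92 and 4.31 CPM in libraries 3 to 5. Granzyme and serpin genes have close paralogues, and how reads matching several of them were counted is not given in the sources used here.

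Cytokine genes split. Il2, the T cell growth factor made mostly by helper cells, had 282 and 251 CPM in libraries 1 and 2, against 6.61, 5.82 and 5.71 CPM in libraries 3 to 5, 44.1-fold higher. Ifng, the macrophage-activating cytokine of cytotoxic and type 1 helper cells, had 86.3 and 71.9 CPM in libraries 1 and 2, against 167, 169 and 178 CPM in libraries 3 to 5, 2.16-fold lower. Csf2, encoding GM-CSF, had 20.5 and 12.1 CPM in libraries 1 and 2, against 36.3, 35.6 and 43.3 CPM in libraries 3 to 5, 2.35-fold lower. Without library 2, the ratios of means were 0.505 for Ifng and 0.535 for Csf2, which misses the rule. Il23a, which encodes the p19 chain of interleukin-23, was among the 10 largest folds of lower genes with at least 10 CPM, with 3.27 and 1.31 CPM in libraries 1 and 2, against 189, 191 and 193 CPM in libraries 3 to 5, 83.3-fold lower. Tnf had 125 and 140.3 CPM in libraries 1 and 2, against 84.6, 84.9 and 89.1 CPM in libraries 3 to 5, and Lta had 223 and 236 CPM in libraries 1 and 2, against 191, 209 and 211 CPM in libraries 3 to 5, both above without a ratio of 2. Over the list of secreted cytokines, 2 of 17 were higher and 2 were lower (11.8% each, against 6.25% and 7.22% of all genes). The 2 lower members of that list were Csf2 and Penk, since Ifng and Il23a are not among its genes.

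Chemokines split too, with 2 of 10 higher (20%, against 6.25% of all genes) and 4 lower (40%, against 7.22%). Ccl20, the ligand of CCR6, had 41 and 45.3 CPM in libraries 1 and 2, against 2.81, 3.48 and 2.61 CPM in libraries 3 to 5, 14.5-fold higher. Ccl22, a ligand of CCR4, had 11.8 and 11.3 CPM in libraries 1 and 2, against 1.22, 1.38 and 1.03 CPM in libraries 3 to 5, 9.56-fold higher. Ccl9 was 16.8-fold lower, with 2.83 and 1.84 CPM in libraries 1 and 2, against 40.6, 36.4 and 41 CPM in libraries 3 to 5. Xcl1, with which CD8 T cells draw cross-presenting dendritic cells, was 2.52-fold lower, with 53.9 and 37 CPM in libraries 1 and 2, against 105, 109 and 129.8 CPM in libraries 3 to 5. Ccl5, a chemokine of effector T cells, was 4.21-fold lower at low levels, with 2.94 and 2.8 CPM in libraries 1 and 2, against 12.2, 12.1 and 12 CPM in libraries 3 to 5.

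Genes tied to helper subsets were measured at low to moderate levels. In the type 17 list, 5 of 8 were higher (62.5%, against 6.25% of all genes). Ccr6, the homing receptor of type 17 cells, had 45.8 and 48.1 CPM in libraries 1 and 2, against 3.04, 2.46 and 2.13 CPM in libraries 3 to 5, 18.5-fold higher. Ahr, a ligand-activated factor that type 17 cells express, had 4.77 and 5.71 CPM in libraries 1 and 2, against 1.14, 1.98 and 1.09 CPM in libraries 3 to 5, 3.73-fold higher. Il17a ran the other way, with 0.0555 and 0 CPM in libraries 1 and 2, against 4.94, 6.12 and 4.31 CPM in libraries 3 to 5. That rested on 1 read in libraries 1 and 2 and was 185-fold lower, with a counting interval of 31.8 to 7100.3. In the type 2 list, 5 of 9 were higher (55.6%, against 6.25%) and 1 was lower (11.1%, against 7.22%). With a filter at a mean of 5 CPM, the count of higher genes was 2 for type 2 and 3 for type 17. Ccr8 had 33.8 and 30.7 CPM in libraries 1 and 2, against 2.36, 3.42 and 2.55 CPM in libraries 3 to 5, 11.6-fold higher, and Il1rl1, the interleukin-33 receptor, had 10.5 and 8.33 CPM in libraries 1 and 2, against 0.836, 1.38 and 1.4 CPM in libraries 3 to 5, 7.81-fold higher. Gata3, the factor that directs type 2 cells, overlapped, at 15.1 and 12.6 CPM in libraries 1 and 2, against 14.1, 15 and 12 CPM in libraries 3 to 5. In the type 1 list, 1 of 10 was higher (10%, against 6.25%) and 3 were lower (30%, against 7.22%). The lower ones included Ifng and Il12rb2, the inducible chain of the interleukin-12 receptor, which had 56.8 and 39.9 CPM in libraries 1 and 2, against 131, 126 and 133 CPM in libraries 3 to 5. Tbx21, encoding T-bet, was at 109.7 and 99.7 CPM in libraries 1 and 2, against 93.3, 93.2 and 97.1 CPM in libraries 3 to 5.

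Of 8 follicular helper genes, 4 were higher (50%, against 6.25% of all genes) and none was lower. Bcl6, the factor that directs these cells, had 11.9 and 11.8 CPM in libraries 1 and 2, against 3.42, 4.74 and 4.07 CPM in libraries 3 to 5, 2.92-fold higher. Slamf6, an adhesion receptor also used to mark memory-like CD8 T cells, had 171 and 177 CPM in libraries 1 and 2, against 40.1, 36.5 and 37.7 CPM in libraries 3 to 5, 4.56-fold higher. Of 14 regulatory T cell genes, 4 were higher (28.6%, against 6.25%) and 1 was lower (7.14%, against 7.22%). With a filter at a mean of 5 CPM, the count of higher genes was 1. Foxp3, which defines regulatory T cells, stood at 4.44 and 4.17 CPM in libraries 1 and 2, against 0.912, 1.02 and 0.972 CPM in libraries 3 to 5, 4.45-fold higher. Gpr83, a receptor that regulatory T cells express, had 9.82 and 12.9 CPM in libraries 1 and 2, against 0.912, 1.02 and 1.03 CPM in libraries 3 to 5, 11.5-fold higher. Ikzf2, encoding Helios, was lower, with 9.32 and 9.52 CPM in libraries 1 and 2, against 30.0, 27 and 30.4 CPM in libraries 3 to 5, 3.09-fold lower. Il2ra and Ctla4, which activated T cells of all kinds express, stayed below a ratio of 2. Il2ra had 1090.3 and 1031 CPM in libraries 1 and 2, against 1001, 981 and 998 CPM in libraries 3 to 5.

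Naive and memory genes were lower more often than higher, with 9 of 24 lower (37.5%, against 7.22% of all genes) and 3 higher (12.5%, against 6.25%). Ccr7, the receptor that guides T cells into lymph nodes, had 515 and 442 CPM in libraries 1 and 2, against 969.7, 985 and 985 CPM in libraries 3 to 5, 2.05-fold lower. Its ratio was 0.526 without library 2 and 0.506 on the deposited FPKM, which misses the rule. Ly6c2 had 4.5 and 4.82 CPM in libraries 1 and 2, against 60.2, 64.2 and 62.1 CPM in libraries 3 to 5, 13.4-fold lower, with the caveat that the Ly6c genes are close paralogues. Cd27, a costimulatory receptor of naive and memory cells, had 44.9 and 44.2 CPM in libraries 1 and 2, against 119.5, 123 and 126 CPM in libraries 3 to 5, 2.76-fold lower. Satb1, a chromatin organiser, was 3.04-fold lower, with 171 and 114 CPM in libraries 1 and 2, against 443, 428 and 428 CPM in libraries 3 to 5. Tcf7, encoding TCF1, and Lef1, which sustain naive and memory cells, differed little. Tcf7 had 180.0 and 168 CPM in libraries 1 and 2, against 190.0, 195 and 198 CPM in libraries 3 to 5, and Lef1 had 86.4 and 89.2 CPM in libraries 1 and 2, against 78.5, 72.6 and 82.9 CPM in libraries 3 to 5. Igfbp4 was 4.85-fold higher, with 35.9 and 47.7 CPM in libraries 1 and 2, against 8.67, 7.97 and 9.23 CPM in libraries 3 to 5.

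Among effector transcription factors, 5 of 19 were higher (26.3%, against 6.25% of all genes) and 3 were lower (15.8%, against 7.22%). Irf8 was abundant and higher, with 915 and 906 CPM in libraries 1 and 2, against 316, 316 and 325 CPM in libraries 3 to 5, 2.85-fold higher. Tox, which takes part in T cell exhaustion and in helper lineage development, had 38.2 and 44.9 CPM in libraries 1 and 2, against 16.4, 15.3 and 16.6 CPM in libraries 3 to 5, 2.58-fold higher. Zeb2, a factor of terminal effector CD8 T cells, had 15.2 and 11.1 CPM in libraries 1 and 2, against 55.3, 49.9 and 51.2 CPM in libraries 3 to 5, 3.97-fold lower. Nfil3 was 3.36-fold lower, with 13.8 and 12 CPM in libraries 1 and 2, against 45.8, 43.6 and 40.2 CPM in libraries 3 to 5.

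Inhibitory receptors divided evenly, with 5 of 17 higher and 5 lower (29.4% each, against 6.25% and 7.22% of all genes). Btla had 379 and 398 CPM in libraries 1 and 2, against 113, 113 and 117 CPM in libraries 3 to 5, 3.41-fold higher. Cd200 had 321 and 325 CPM in libraries 1 and 2, against 97.5, 94.3 and 94.6 CPM in libraries 3 to 5, 3.38-fold higher. Nt5e, the ectoenzyme CD73, was 2.82-fold higher, with 52.1 and 64.6 CPM in libraries 1 and 2, against 20.5, 20.8 and 20.7 CPM in libraries 3 to 5. On the lower side, Lag3, whose product binds MHC class II, had 47.6 and 50.5 CPM in libraries 1 and 2, against 127, 130.2 and 136 CPM in libraries 3 to 5, 2.67-fold lower. Tigit had 26.7 and 28.2 CPM in libraries 1 and 2, against 83.8, 80.2 and 84.4 CPM in libraries 3 to 5, 3.02-fold lower. Pdcd1, encoding PD-1, was at 149.5 and 162 CPM in libraries 1 and 2, against 98.1, 103 and 97.9 CPM in libraries 3 to 5, above without a ratio of 2.

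Few of the genes that T cell receptor signals switch on met the rule. Of 37 compared, 1 was higher (2.7%, against 6.25% of all genes), which was Il2, and 4 were lower (10.8%, against 7.22%). Without regard to the ratio, 21 lay below all of libraries 3 to 5 (against 37.6% of all genes) and 7 above (against 36.4%). Tnfrsf9, encoding the costimulatory receptor 4-1BB, had 288 and 268 CPM in libraries 1 and 2, against 728, 712 and 729 CPM in libraries 3 to 5, 2.6-fold lower. Its ligand gene Tnfsf9 ran the other way at a low level, with 11.7 and 8.33 CPM in libraries 1 and 2, against 1.6, 2.82 and 2.19 CPM in libraries 3 to 5. Spry2, a feedback inhibitor of receptor signalling, had 8.1 and 7.62 CPM in libraries 1 and 2, against 31.5, 28.4 and 27.9 CPM in libraries 3 to 5, 3.72-fold lower. Nr4a1, an early gene of receptor signalling, had 367 and 355 CPM in libraries 1 and 2, against 458, 446 and 458 CPM in libraries 3 to 5, and Myc had 365 and 358 CPM in libraries 1 and 2, against 391, 395 and 403 CPM in libraries 3 to 5, neither near a ratio of 2. Among genes of common gamma chain cytokine signalling, the kinase gene Pim1 was 3.14-fold lower, with 116 and 102 CPM in libraries 1 and 2, against 336, 345 and 347 CPM in libraries 3 to 5. The survival gene Bcl2 was 2.16-fold lower, with 102 and 101 CPM in libraries 1 and 2, against 222, 222 and 214 CPM in libraries 3 to 5, whereas Socs2, a feedback inhibitor, was 2.1-fold higher, with 89.8 and 98.5 CPM in libraries 1 and 2, against 47.1, 43.9 and 43.9 CPM in libraries 3 to 5.

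**Figure D3:**
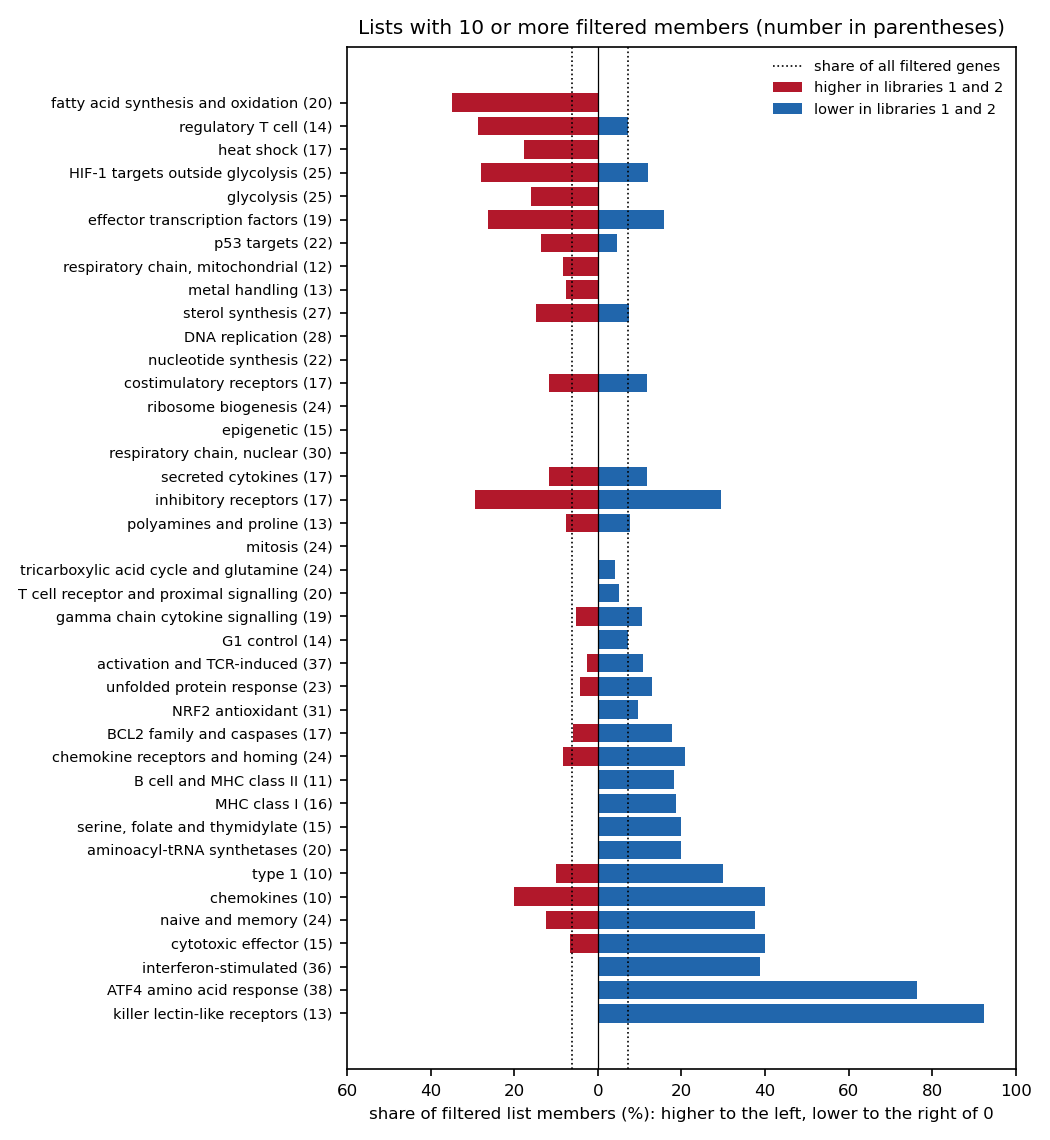
Share of the compared members of each list that were higher (red, left of 0) or lower (blue, right of 0) in libraries 1 and 2, for lists with at least 10 compared members (number in parentheses). Dotted lines mark the 6.25% and 7.22% of all genes; killer lectin-like receptors (92.3% lower) and the ATF4 list (76.3% lower) reach farthest.

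Among lists with at least 10 compared genes, the ATF4 amino acid response had the next largest share of lower genes. Of 38 compared genes, 29 (76.3%, against 7.22% of all genes) were lower in libraries 1 and 2 and none was higher, and 36 lay below all of libraries 3 to 5 (against 37.6% of all genes). The median log2 ratio was -1.52. Avil, which encodes the actin-binding advillin, is a less usual member. It had 0.277 and 0.179 CPM in libraries 1 and 2, against 30.6, 32.9 and 32.6 CPM in libraries 3 to 5, 141-fold lower. Without it, 28 of 37 genes (75.7%) were lower. Some of these genes have a C/EBP-ATF response element near their start, whose core can be written TGATGNAA. RefSeq promoter windows of GRCm38.p6, which run from 250 bases before to 50 bases after each start, were searched for it on both strands, and no other motif was searched. It was found in 12 of the 34 listed genes with a window (35.3%). The same held for 1219 of all 27025 genes with a window (4.51%) and 259 of 9414 compared genes (2.75%). Of the 34, Fgf21, which held the motif, and Gdf15 were not among the compared genes. The share in the list depends on which genes were listed and not on these libraries. Among the 652 lower genes with a window, 44 (6.75%) held the motif, and among the 547 higher ones 10 (1.83%) did. These 44 include 11 of the 25 lower genes of the ATF4 list with a window, so the 2 results are not separate. Ddit3, Slc6a9, Gpt2 and Atf5, which were also lower, had a window without the motif. Without Avil it was in 11 of 33 listed genes. A match is a description of these letters and not evidence of binding.
The stretches of 4 strongly lower genes are shown 5′ to 3′ on the gene's strand, with the matches in capitals, because they carry the motif that the list is known for. Those of Asns, Slc7a11 and Chac1 are the 250 bases before the start, and that of Trib3 is 30 bases around a match 14 bases after it.
Trib3, chr2:152344028-152344057, minus strand: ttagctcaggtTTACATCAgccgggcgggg
Asns, chr6:7693210-7693459, minus strand: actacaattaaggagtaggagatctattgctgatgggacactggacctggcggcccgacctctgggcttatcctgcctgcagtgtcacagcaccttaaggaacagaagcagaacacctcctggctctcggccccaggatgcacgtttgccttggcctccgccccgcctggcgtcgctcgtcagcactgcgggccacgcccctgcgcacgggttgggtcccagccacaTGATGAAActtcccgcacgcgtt
Slc7a11, chr3:50443614-50443863, minus strand: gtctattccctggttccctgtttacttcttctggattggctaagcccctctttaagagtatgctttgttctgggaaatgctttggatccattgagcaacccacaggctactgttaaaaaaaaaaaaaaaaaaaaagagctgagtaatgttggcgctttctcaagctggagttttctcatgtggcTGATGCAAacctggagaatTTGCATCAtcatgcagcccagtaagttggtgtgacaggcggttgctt
Chac1, chr2:119350992-119351241, plus strand: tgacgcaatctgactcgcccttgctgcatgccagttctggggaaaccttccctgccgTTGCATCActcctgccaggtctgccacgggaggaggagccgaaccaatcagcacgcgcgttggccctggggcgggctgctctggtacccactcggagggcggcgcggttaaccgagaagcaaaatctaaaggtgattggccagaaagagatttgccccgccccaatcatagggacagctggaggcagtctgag

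Among the regulators of this response, Atf4 itself had 421 and 419 CPM in libraries 1 and 2, against 851, 868 and 895 CPM in libraries 3 to 5, 2.07-fold lower. Ddit3, encoding the stress factor CHOP, had 8.27 and 9.64 CPM in libraries 1 and 2, against 74.3, 83 and 84.5 CPM in libraries 3 to 5, 9-fold lower. Trib3, a pseudokinase that ATF4 and CHOP induce, had 9.77 and 12.2 CPM in libraries 1 and 2, against 246, 240.2 and 239 CPM in libraries 3 to 5, 22-fold lower, and its closest libraries differed 19.6-fold. Atf5 was 6.38-fold lower, with 6.66 and 8.33 CPM in libraries 1 and 2, against 47.9, 46 and 49.6 CPM in libraries 3 to 5. Atf3 was 3.09-fold lower, with 27.4 and 21.4 CPM in libraries 1 and 2, against 70.2, 81.7 and 74.1 CPM in libraries 3 to 5. The chromatin-associated stress protein gene Nupr1 was 28.5-fold lower, with 1.28 and 1.19 CPM in libraries 1 and 2, against 31.3, 35.1 and 39.1 CPM in libraries 3 to 5. Ppp1r15a, encoding GADD34, which restores translation after stress, was 3.71-fold lower, with 38 and 35.2 CPM in libraries 1 and 2, against 129, 137 and 141 CPM in libraries 3 to 5. Thus the factor gene itself differed less than Ddit3, Trib3 and Nupr1.

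Several enzymes of amino acid and folate metabolism were lower. Asns, asparagine synthetase, had 75.4 and 68.3 CPM in libraries 1 and 2, against 463, 455 and 455 CPM in libraries 3 to 5, 6.37-fold lower. Pycr1, which makes proline in mitochondria, had 3.11 and 3.45 CPM in libraries 1 and 2, against 45, 44.6 and 43.6 CPM in libraries 3 to 5, 13.5-fold lower. Cth, which makes cysteine from cystathionine, had 37 and 32.8 CPM in libraries 1 and 2, against 276, 288 and 275 CPM in libraries 3 to 5, 8.01-fold lower. Gpt2, the mitochondrial alanine aminotransferase, was 7.78-fold lower, with 12.8 and 12.7 CPM in libraries 1 and 2, against 102, 99.3 and 96.3 CPM in libraries 3 to 5. Chac1, which breaks down glutathione, had 5.16 and 3.87 CPM in libraries 1 and 2, against 31.8, 34.5 and 35.2 CPM in libraries 3 to 5, 7.49-fold lower. Aldh1l2, a mitochondrial folate enzyme, was 28.9-fold lower, with 1.39 and 1.67 CPM in libraries 1 and 2, against 49, 40.2 and 43.2 CPM in libraries 3 to 5. In the serine, folate and thymidylate list, 3 of 15 genes were lower (20%, against 7.22% of all genes), and all 3 are also in the ATF4 list. In the serine, folate and thymidylate list none was higher, and 6 lay above all of libraries 3 to 5 (against 36.4%). Phgdh, its first enzyme, was at 479 and 492 CPM in libraries 1 and 2, against 930.1, 976 and 924 CPM in libraries 3 to 5, and Psat1 at 386 and 405 CPM in libraries 1 and 2, against 645, 678 and 671 CPM in libraries 3 to 5, both below without a ratio of 2. Psph was 2.56-fold lower, the mitochondrial Shmt2 2.31-fold lower and Mthfd2 2.21-fold lower, with Mthfd2 at 256 and 254 CPM in libraries 1 and 2, against 548, 579.5 and 564 CPM in libraries 3 to 5. The cytosolic counterparts lay on the other side without a ratio of 2, with Shmt1 at 188 and 181 CPM in libraries 1 and 2, against 115, 117 and 109 CPM in libraries 3 to 5 and Mthfd1 at 265 and 272 CPM in libraries 1 and 2, against 171, 179 and 172 CPM in libraries 3 to 5.

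Of the 10 amino acid transporter genes of the list, 6 were lower (against 7.22% of all genes). Slc7a11, the cystine importer, had 2.22 and 2.02 CPM in libraries 1 and 2, against 19.7, 15.8 and 18 CPM in libraries 3 to 5, 8.4-fold lower. Slc7a3, an importer of cationic amino acids, had 7.21 and 6.37 CPM in libraries 1 and 2, against 125, 128 and 126 CPM in libraries 3 to 5, 18.7-fold lower. Slc6a9, a glycine transporter, had 6.88 and 5.3 CPM in libraries 1 and 2, against 53.4, 51 and 53.2 CPM in libraries 3 to 5, 8.62-fold lower. The abundant pair that imports large neutral amino acids differed less, with Slc7a5 2.06-fold lower (a ratio of 0.503 on the deposited FPKM, which misses the rule) and its partner chain Slc3a2 2.59-fold lower, at 204 and 210.5 CPM in libraries 1 and 2, against 521, 549 and 543 CPM in libraries 3 to 5. Slc7a1, which imports cationic amino acids, and the glutamine transporter genes Slc1a5, Slc38a1 and Slc38a2 lay below without a ratio of 2, with Slc1a5 at 462 and 487 CPM in libraries 1 and 2, against 861, 879 and 853 CPM in libraries 3 to 5. Of the 38 genes, 2 ran above: Ddit4, a brake on mTORC1, at 78.6 and 83.8 CPM in libraries 1 and 2, against 71.1, 71.3 and 74.9 CPM in libraries 3 to 5, and Cbs at 2.16 and 1.96 CPM in libraries 1 and 2, against 1.6, 0.959 and 0.607 CPM in libraries 3 to 5. Among aminoacyl-tRNA synthetases, 4 of 20 were lower (20%, against 7.22% of all genes), 16 lay below all of libraries 3 to 5 (against 37.6%), and the median log2 ratio was -0.60. Sars, which charges serine tRNA, had 237 and 239.9 CPM in libraries 1 and 2, against 547, 537 and 542 CPM in libraries 3 to 5, 2.27-fold lower. Lars was 2.95-fold lower and Nars 2.25-fold lower.

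**Figure D4:**
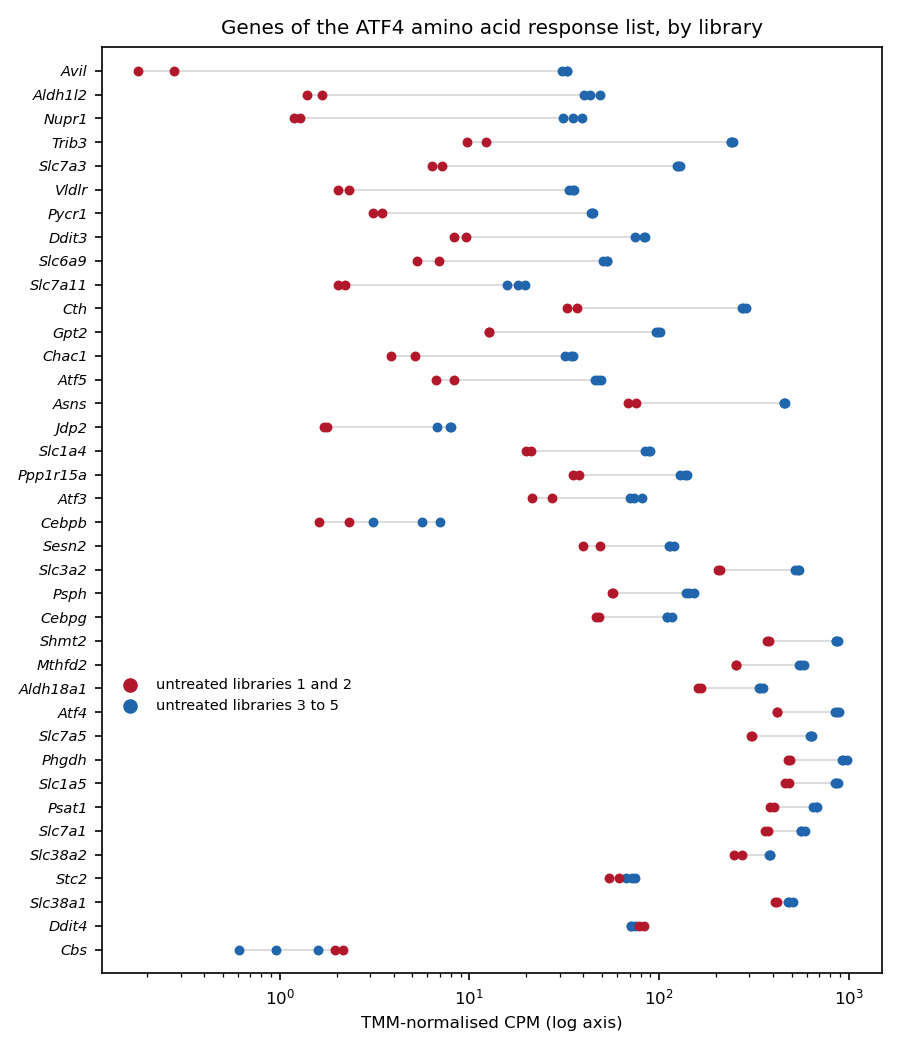
TMM-normalised CPM (log axis) of the 38 compared genes of the ATF4 list, 1 row per gene, ordered by ratio with the lowest on top; red points are libraries 1 and 2 and blue points libraries 3 to 5. Libraries 1 and 2 stand to the left of libraries 3 to 5 in 36 rows, and Ddit4 and Cbs at the bottom stand to the right.

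Glycolysis leaned the other way in small steps. Of 25 genes, 21 lay above all of libraries 3 to 5 (against 36.4% of all genes), but only 4 were higher by the rule (16%, against 6.25%), none was lower, and the median log2 ratio was 0.59. Pfkl, the liver isoform of phosphofructokinase, had 221 and 219.9 CPM in libraries 1 and 2, against 50.2, 53.3 and 48.7 CPM in libraries 3 to 5, 4.35-fold higher. Slc16a3, the lactate exporter MCT4, had 92.8 and 82 CPM in libraries 1 and 2, against 19.8, 21.5 and 18.7 CPM in libraries 3 to 5, 4.37-fold higher. Tpi1, triosephosphate isomerase, had 825 and 825 CPM in libraries 1 and 2, against 370.0, 366 and 369 CPM in libraries 3 to 5, 2.24-fold higher. Ldhb, the heart isoform of lactate dehydrogenase, was 2.66-fold higher, with 27.8 and 30.5 CPM in libraries 1 and 2, against 9.2, 12.1 and 11.6 CPM in libraries 3 to 5. The more abundant genes stayed below a ratio of 2. Ldha had 2656 and 2553 CPM in libraries 1 and 2, against 1957, 2039 and 1955 CPM in libraries 3 to 5, Pkm had 2285 and 2075 CPM in libraries 1 and 2, against 1179.7, 1215 and 1230.1 CPM in libraries 3 to 5, and the glucose transporter Slc2a1 had 106 and 105 CPM in libraries 1 and 2, against 69.8, 66.7 and 66 CPM in libraries 3 to 5.

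Targets of the hypoxia-inducible factor HIF-1 outside glycolysis divided, with 7 of 25 higher (28%, against 6.25% of all genes) and 3 lower (12%, against 7.22%). Ak4, a mitochondrial adenylate kinase, had 42.1 and 40.1 CPM in libraries 1 and 2, against 5.25, 2.7 and 3.83 CPM in libraries 3 to 5, 10.5-fold higher. Bnip3, a mitophagy receptor, had 21.7 and 16.8 CPM in libraries 1 and 2, against 3.8, 4.14 and 3.71 CPM in libraries 3 to 5, 4.97-fold higher. Egln3, an oxygen-sensing prolyl hydroxylase, was 3.11-fold higher, with 44.3 and 49.9 CPM in libraries 1 and 2, against 15.2, 15.2 and 15 CPM in libraries 3 to 5. Vegfa, the vascular growth factor, was 3.71-fold lower, with 17.2 and 17.7 CPM in libraries 1 and 2, against 66.1, 61.9 and 66.4 CPM in libraries 3 to 5. Gys1, glycogen synthase, was 4.51-fold lower, with 11.9 and 10.5 CPM in libraries 1 and 2, against 49.8, 52.1 and 49.8 CPM in libraries 3 to 5. Ndrg1 was 3.41-fold lower, with 12.7 and 10.6 CPM in libraries 1 and 2, against 41.2, 38.2 and 39.7 CPM in libraries 3 to 5. Hif1a itself was at 253 and 248 CPM in libraries 1 and 2, against 299.9, 299 and 286 CPM in libraries 3 to 5.

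Lipid synthesis genes were higher in part. In the sterol list, 24 of 27 lay above all of libraries 3 to 5 (against 36.4% of all genes), 4 were higher by the rule (14.8%, against 6.25%), and the median log2 ratio was 0.52. Cyp51, lanosterol demethylase, had 378 and 373 CPM in libraries 1 and 2, against 184, 183 and 186 CPM in libraries 3 to 5, 2.03-fold higher. Dhcr7, which acts near the end of the pathway, had 41.6 and 43.3 CPM in libraries 1 and 2, against 19.8, 20.5 and 16.8 CPM in libraries 3 to 5, 2.23-fold higher. The 2 lower members, Abca1 and Abcg1, encode cholesterol exporters: Abcg1 had 5.22 and 4.28 CPM in libraries 1 and 2, against 18, 17.1 and 14.6 CPM in libraries 3 to 5, 3.49-fold lower. In the fatty acid list, 7 of 20 were higher (35%, against 6.25% of all genes) and none was lower. Fasn, fatty acid synthase, had 873 and 855 CPM in libraries 1 and 2, against 418, 407 and 411 CPM in libraries 3 to 5, 2.1-fold higher. Elovl6, a fatty acid elongase, was 3.03-fold higher, with 61.9 and 58.9 CPM in libraries 1 and 2, against 20.2, 18.1 and 21.5 CPM in libraries 3 to 5. Cpt1a, which admits fatty acids to mitochondria for oxidation, was 2.38-fold higher, with 64.9 and 71.1 CPM in libraries 1 and 2, against 26.2, 30.2 and 29.5 CPM in libraries 3 to 5. Srebf1, encoding the regulator SREBP-1, was at 124 and 119 CPM in libraries 1 and 2, against 129.9, 131 and 134 CPM in libraries 3 to 5.

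Most growth and division lists held no gene that met the rule. None of 22 nucleotide synthesis, 24 mitosis, 28 DNA replication, 24 ribosome biogenesis or 30 nuclear respiratory chain genes was higher or lower. Over all genes, 6.25% were higher and 7.22% lower. The median log2 ratios of these lists ran from -0.11 to 0.22. Without regard to the ratio, 17 nucleotide synthesis, 19 mitosis and 18 ribosome biogenesis genes lay above all of libraries 3 to 5 (against 36.4%). So did 10 of the DNA replication and 5 of the respiratory chain genes. Below all of libraries 3 to 5 lay 14 DNA replication and 14 respiratory chain genes (against 37.6% of all genes). The same held for 2 nucleotide synthesis, 2 mitosis and 5 ribosome biogenesis genes. Mki67, the proliferation marker, had 1027 and 978 CPM in libraries 1 and 2, against 809, 798 and 795 CPM in libraries 3 to 5, and Top2a, a topoisomerase of dividing cells, had 1213 and 1233 CPM in libraries 1 and 2, against 1153, 1118 and 1107 CPM in libraries 3 to 5. Pcna, the replication clamp, had 544 and 569 CPM in libraries 1 and 2, against 691, 697 and 680.3 CPM in libraries 3 to 5. In the G1 control list, 1 of 14 genes was lower (7.14%, near the 7.22% of all genes). Cdkn2c, an inhibitor of the G1 kinases, was 2.23-fold lower, with 20.4 and 23.9 CPM in libraries 1 and 2, against 48, 50.5 and 49.6 CPM in libraries 3 to 5. One muscle-type respiratory subunit outside these lists, Cox6a2, had the largest fold among lower genes of at least 10 CPM, with 0.0555 and 0 CPM in libraries 1 and 2, against 25.8, 24.5 and 22.5 CPM in libraries 3 to 5. On 1 read in libraries 1 and 2, that was 875-fold lower, with a counting interval of 151 to 33275.

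**Figure D5:**
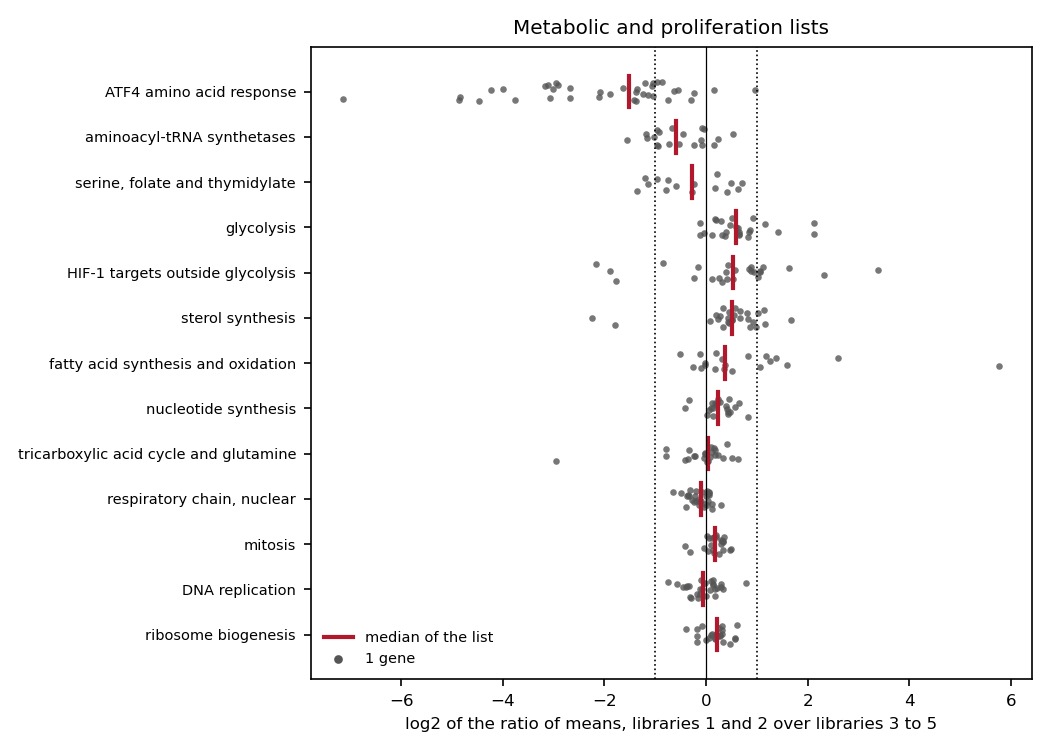
Log2 of the ratio of means (libraries 1 and 2 over libraries 3 to 5) for each compared gene of 13 metabolic and proliferation lists; points are genes, red bars list medians and dotted lines a ratio of 2 either way. The ATF4 list has its median at -1.52 and glycolysis at 0.59, while mitosis, DNA replication and ribosome biogenesis cluster around 0.

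Interferon-stimulated genes were lower in part. Of 36 compared, 14 were lower (38.9%, against 7.22% of all genes) and none was higher, with a median log2 ratio of -0.65. Of these 14, 10 stayed at or below 10.5 CPM in every library. Isg15, a ubiquitin-like antiviral protein gene, had 1.44 and 1.13 CPM in libraries 1 and 2, against 7.68, 7.79 and 10.5 CPM in libraries 3 to 5, 6.73-fold lower. Irf7, the factor that amplifies the response, had 3.11 and 2.08 CPM in libraries 1 and 2, against 14.5, 17.4 and 16 CPM in libraries 3 to 5, 6.16-fold lower. Xaf1 was 8.25-fold lower, with 2.66 and 1.79 CPM in libraries 1 and 2, against 20.1, 17.8 and 17.2 CPM in libraries 3 to 5. With a filter at a mean of 5 CPM, the count of lower genes was 5. Some abundant members lay above without a ratio of 2, as Gbp2, an interferon-induced GTPase gene, at 574 and 598 CPM in libraries 1 and 2, against 403, 395 and 425 CPM in libraries 3 to 5.

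Beyond the lists, the largest folds toward libraries 1 and 2 among genes of at least 10 CPM belonged, after Cd4, to Angptl2, a secreted angiopoietin-like protein, and St8sia6, a sialyltransferase. Angptl2 had 77.5 and 121 CPM in libraries 1 and 2, against 0.608, 0.6 and 0.85 CPM in libraries 3 to 5, 144-fold higher. St8sia6 had 42.8 and 49.4 CPM in libraries 1 and 2, against 0.836, 0.36 and 0.121 CPM in libraries 3 to 5, 105-fold higher. Dgkk, Stra6, Adad1, Dsp and Cadm1 were 58.8, 57.4, 38.4, 36.3 and 25.2-fold higher. Dsp, which encodes the junction protein desmoplakin, had 35.4 and 38.9 CPM in libraries 1 and 2, against 0.836, 0.839 and 1.4 CPM in libraries 3 to 5. On the lower side, Fbln5, encoding the matrix protein fibulin-5, had 0.111 and 0.119 CPM in libraries 1 and 2, against 15, 13.1 and 16.1 CPM in libraries 3 to 5, 128-fold lower. Aqp9, a water and glycerol channel, had 0.333 and 0.238 CPM in libraries 1 and 2, against 11.6, 12.8 and 11.6 CPM in libraries 3 to 5, 42.1-fold lower. Ermn and Fam171b were 46.4 and 30.5-fold lower. Ifi213, of an interferon-inducible family with close paralogues, had 0 and 0.179 CPM in libraries 1 and 2, against 9.5, 10.1 and 11.1 CPM in libraries 3 to 5, 115-fold lower, with a counting interval of 40.7 to 582.

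Measures of RNA and summed markers of other cells were also compared. Mitochondrial genes took 2.08% and 2.06% of reads in libraries 1 and 2, against 2.03%, 1.91% and 1.99% in libraries 3 to 5. Ribosomal protein genes took 7.64% and 7.65% in libraries 1 and 2, against 9.51%, 9.94% and 10.2% in libraries 3 to 5. The median annotated length was 5026 bases for the 731 higher genes, 3730 bases for the 844 lower genes and 4491 bases for all compared. Of 18 B cell and MHC class II genes, whose summed level was 92.4 to 95.6 CPM in libraries 1 and 2 and 132 to 138 CPM in libraries 3 to 5, 2 of the 11 compared were lower (18.2%, against 7.22% of all genes). These were the B cell receptor chain genes Cd79a and Cd79b, and Cd79a misses the rule without library 2 (a ratio of 0.636) or library 3 (0.642). Pax5 had no read, and Cd74 made up most of the sum. The sum over 20 myeloid and dendritic genes was 12.3 to 14.3 CPM in libraries 1 and 2 and 18.8 to 21.1 CPM in libraries 3 to 5, with Csf1r, Itgam, S100a8 and S100a9 at 0. The sum over 9 NK cell genes, mostly Eomes, was 31.1 to 37.0 CPM in libraries 1 and 2 and 54.3 to 60.3 CPM in libraries 3 to 5. In the list of gamma delta and innate-like T cell genes, 2 genes were compared, Maf among them, and both were higher (against 6.25% of all genes). Its summed level was 12.9 to 15.9 CPM in libraries 1 and 2 and 3.52 to 4.26 CPM in libraries 3 to 5. Erythroid, platelet and mast cell genes summed to 3.15 to 3.50 CPM in libraries 1 and 2 and 12.7 to 14.6 CPM in libraries 3 to 5, with Hba-a1 at 0. Stromal genes other than Vim and Pecam1, which T cells can also express, were each at or below 1.49 CPM. The part of these measures in the differences between the sets was not tested.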

How the data were processed

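Messenger RNA of cells labelled as CD8+ T cells was measured by bulk RNA sequencing, with 1.3 µg of total RNA per library, per the labels' protocols. Per the file headers, the deposited table gives a read count and an FPKM value per gene and library. The deposited counts are whole and entered the comparison unchanged. Deposited FPKM values behind at least 50 counts could be rebuilt from the count, the gene length and the library total. The builds GRCm38 and mm10 are named in the submitters' processing notes, whereas no source used here gives the aligner, the counting tool or the use of strand.

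The 5 untreated libraries were filtered with filterByExpr (set as group) and scaled by TMM factors in edgeR 4.0.16 (R 4.3.3), giving CPM values. Set means were compared by non-overlap and a ratio of 2, without a test, since the sets were chosen on these values. The members, lists and rule were chosen with earlier results of these data known. The rule named the 10 largest ratios each way with at least 10 CPM in the higher set, plus Cd4, Zbtb7b, Cd8a, Cd8b1 and Trib3. From each of 51 lists it took up to 3 higher and 3 lower members with at least 5 CPM, or else the 2 most abundant. It named 153 genes, some of which are not reported here; other list members named were chosen after their values were seen. Repeated gene symbols (22 rows) were replaced by identifiers. The classification was tested on simulated data. At these depths 1 read is worth 0.0555 to 0.0760 CPM; intervals and floors cover counting error only. Alternatives were other scalings (DESeq2 1.42.0 among them), filters, ratios, geometric means, FPKM and leaving out each library.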

Additional observations from a re-analysis of the deposited data

How the results depend on the processing

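The counts of 731 higher and 844 lower genes stayed within 1.5 times under library size alone, DESeq2 size factors, upper quartile factors, geometric means and the deposited FPKM values. Without the filter, 1176 genes were higher. With a filter at a mean of 5 CPM, 266 were higher and 428 lower, since fewer genes were compared. With a ratio of 1.5, 1363 were higher and 1644 lower, and with a ratio of 4, 277 and 264. Leaving out each untreated library in turn gave 742 to 831 higher and 798 to 977 lower genes. Among the 153 genes the rule named, none of those counted as higher or lower changed direction under any of these. Genes named here that missed the ratio when 1 library was left out included Cxcr5, Bag3 and Pecam1 without library 1, Ifng, Csf2, Penk and Id3 without library 2, Bag3 without library 3, and Ccr4 without library 5. Of other genes described, Ccr7 missed it without library 2, Cd79a without library 2 or 3, and both, with Slc7a5, on the deposited FPKM. Their ratios then ran from 0.503 to 0.642 for lower genes and from 1.73 to 1.99 for higher genes. Within the killer lectin-like receptors, 4 (filter at 5 CPM) to 14 (no filter) genes were lower across the alternatives, and 28 to 30 in the ATF4 list. A filter at 5 CPM also lowered other counts of lists with few reads. No paired analysis was possible because the sets hold different library numbers and no result comes from a test. With 2 and 3 libraries, counting error limits what can be said of genes with a few reads.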

Other observations

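Antigen presentation genes of MHC class I lay below in libraries 1 and 2. Of 16 genes, 13 lay below all of libraries 3 to 5 (against 37.6% of all genes) and 3 were lower by the rule (18.8%, against 7.22%), with a median log2 ratio of -0.50. H2-K1, a classical class I heavy chain, had 983 and 976 CPM in libraries 1 and 2, against 1903, 1949 and 1956 CPM in libraries 3 to 5, and B2m, the shared light chain, had 1022 and 1029 CPM in libraries 1 and 2, against 1637, 1644 and 1691 CPM in libraries 3 to 5, both without a ratio of 2. H2-Q4 was 2.11-fold lower, with 121 and 119 CPM in libraries 1 and 2, against 239.6, 253 and 265 CPM in libraries 3 to 5, and belongs to a family of close paralogues. Stress pathways outside the ATF4 list gave smaller counts. Among unfolded protein response genes, 3 of 23 were lower (13%, against 7.22% of all genes) and 1 was higher (4.35%, against 6.25%). Herpud1, which aids degradation of misfolded proteins, had 57.6 and 63 CPM in libraries 1 and 2, against 170.3, 170.0 and 177 CPM in libraries 3 to 5, 2.86-fold lower. Among NRF2 antioxidant genes, 3 of 31 were lower (9.68%, near the 7.22% of all genes), of which Slc7a11 is also in the ATF4 list. Hmox1, heme oxygenase, was 2.66-fold lower, with 7.38 and 5.95 CPM in libraries 1 and 2, against 17.3, 18 and 17.9 CPM in libraries 3 to 5, and Sqstm1, an autophagy receptor, was 2.7-fold lower, with 112 and 102 CPM in libraries 1 and 2, against 298, 278 and 292 CPM in libraries 3 to 5. Of 22 p53 targets, 3 were higher (13.6%, against 6.25% of all genes), among them Phlda3 with 34.6 and 37.9 CPM in libraries 1 and 2, against 15.1, 12.7 and 14.9 CPM in libraries 3 to 5, and Sesn2, also in the ATF4 list, was lower.

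Metal and transport genes gave a few further values. Slc39a8, an importer of zinc and manganese, had 34.9 and 39.4 CPM in libraries 1 and 2, against 7.75, 6.77 and 9.29 CPM in libraries 3 to 5, 4.68-fold higher. Ass1, which makes argininosuccinate on the way to arginine, had 107 and 114 CPM in libraries 1 and 2, against 50.9, 45.9 and 49.6 CPM in libraries 3 to 5, 2.26-fold higher. Mast cell, basophil and platelet genes were measured at a few CPM or less. Of 6 compared, 5 were lower (83.3%, against 7.22% of all genes), and 0 were with a filter at a mean of 5 CPM. Kit, the stem cell factor receptor, had 0.666 and 0.536 CPM in libraries 1 and 2, against 2.89, 3.54 and 2.79 CPM in libraries 3 to 5. Cpa3, a mast cell protease, had 0.0555 and 0.0595 CPM in libraries 1 and 2, against 1.06, 1.5 and 1.34 CPM in libraries 3 to 5. Mcpt8, a basophil protease, had no read in libraries 1 and 2 and 0.76, 0.36 and 1.15 CPM in libraries 3 to 5. None of 8 sex-linked genes was higher or lower. Ddx3y, on chromosome Y, was read in all 5 libraries, with 125 and 116 CPM in libraries 1 and 2, against 144, 141 and 135 CPM in libraries 3 to 5. Kdm5c, on chromosome X, had 238 and 230.5 CPM in libraries 1 and 2, against 126, 127 and 119 CPM in libraries 3 to 5.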
